A study of Mus musculus with 94 samples.

Results

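L1Md_T is one of the youngest subfamilies of LINE-1 (L1) retrotransposons in the mouse genome. The counts of single L1Md_T copies were described in cortex and hippocampus of 4 groups of mice. A copy was included if its identifier, up to the copy number, reads exactly L1Md_T, and 3 copies (L1Md_T_dup9904, L1Md_T_dup3645 and L1Md_T_dup16304) were left out. This gave 20181 members of the 430083 L1 elements counted. The choice used names and no measured value, although the 3 copies left out were named with earlier results of these data known.

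The mice were 3 to 4 month-old males, either Ts65Dn (TS) or their wild-type (WT) littermates, and were non-treated (-nt) or given lamivudine at 3 mg/kg in the drinking water (-t). Treatment went on for 4 months and tissue was taken after behavioural tests, while the age at which it was taken is not given. Ts65Dn is a trisomic model of Down syndrome in which segments of MMU16 and MMU17 are present in a further copy, and lamivudine inhibits reverse transcriptase. Both genotypes came from crosses of B6EiC4Sn.BLiA-Ts(1716)65Dn/DnJ females to hybrid B6C3F1/OlaHsd males, so that all 4 groups shared a mixed strain background. Cortex libraries of total RNA came from 9 TS-nt, 13 TS-t, 9 WT-nt and 17 WT-t mice, hippocampus libraries from 8, 13, 8 and 17, and 46 of the 48 mice had both. All non-treated mice had an animal label beginning with 20, while labels of treated mice began with 18 (6 WT-t, 1 TS-t), 19 (8 WT-t, 4 TS-t) or 20 (3 WT-t, 8 TS-t). What these numbers stand for is not stated, and for the labels 18 and 19 it cannot be told apart from the treatment. The methods of the study also speak of samples pooled in groups of 3, and where a library was a pool, the spread given here would be one between pools.

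L1 elements move through an RNA intermediate that is copied back into DNA by the reverse transcriptase they encode. A complete mouse L1 has a promoter made of repeated monomers at its 5′ end, an open reading frame for an RNA-binding protein (ORF1) and another for the endonuclease and reverse transcriptase (ORF2). The subfamilies T, A and Gf hold the copies that can still move, whereas most copies in the genome are truncated at the 5′ end or mutated. Young copies are nearly identical in sequence and their insertions can differ between inbred strains. The authors let a read align to as many as 5 places and gave it to the most probable copy, so that the count of a single member is uncertain where close copies exist. RNA that runs through an L1 from a gene or another promoter is counted as well. Lengths and positions of the members were not analysed here, so that the order of members by level is not one per length, and no sequence is printed.

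Over all libraries of a tissue, 14820 members (73.4%) had at least 1 count in cortex and 13016 (64.5%) in hippocampus, against 81.5% and 63.0% of all L1 elements. A count in both tissues was found for 11481 members, in cortex only for 3339, in hippocampus only for 1535 and in neither for 3826. Most members were close to the limit of detection. A member with a count had a median of 9 counts summed over the 48 cortex libraries and 6 over the 46 hippocampus libraries. Only 8 members had a count in every cortex library and 16 in every hippocampus library, while 3544 and 3571 were counted in a single library. A count of 0 does not show that a member was silent.

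The counts were concentrated on few members. The 10 highest held 7.95% of the members' counts in cortex and 10.8% in hippocampus, and the 100 highest 22.5% and 27.2%. In cortex 843 members held as many counts as all others together, and in hippocampus 554. The curve of the cumulative share rises faster in hippocampus, where the sum of counts was smaller (271087 against 419556).

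**Figure D1:**
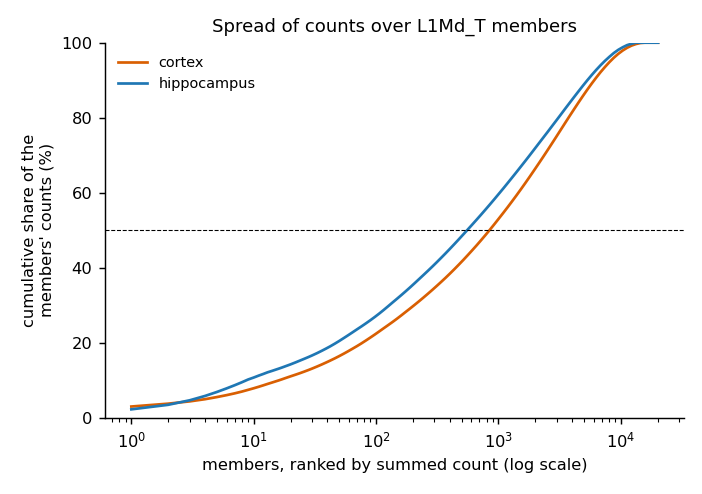
Cumulative share of the counts on L1Md_T members (y axis, percent) against the number of members ranked by their summed count (x axis, log scale), for cortex and hippocampus. The first 10 members hold 7.95% in cortex and 10.8% in hippocampus, and the dashed line is reached at 843 and 554 members.

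The number of members seen in a library moved with its depth. L1 totals were between 178454 and 1165192 counts per library. Drawn down to the smallest total, a cortex library was expected to hold 1516 ± 351 members (SD, n = 48) and a hippocampus library 1268 ± 241 (n = 46). As counted the means were 2004 ± 729 and 1492 ± 380. At the common depth the group means in cortex were 1679 ± 284 in WT-nt (n = 9), 1407 ± 423 in WT-t (n = 17), 1494 ± 379 in TS-nt (n = 9) and 1561 ± 234 in TS-t (n = 13). In hippocampus they were 1258 ± 230 (n = 8), 1255 ± 168 (n = 17), 1202 ± 346 (n = 8) and 1330 ± 268 (n = 13) in the same order. The differences between groups were smaller than the SD within most of them, and they were not tested.

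In 8 cortex libraries the overall L1 profile stood apart from the rest: mice 1, 3, 4 and 47 (WT-t), 2 and 8 (TS-t), 23 (TS-nt) and 24 (WT-nt). No hippocampus library did. In the cortex of mouse 1 a single element that was left out, L1Md_T_dup9904, held 17.2% of all L1 counts, and the expected number of members at the common depth was 238, the lowest of the 94 libraries. Without these 8 libraries 13910 members (68.9%) had a count in cortex. The cortex library of mouse 24 held 273 of the 3148 members that were counted in a single library of either tissue (8.67%), with up to 71 counts. Of 58 members that were counted in only 1 of the 46 mice and had at least 10 counts there as the median over both of its libraries, 57 were counted only in mouse 24. All 57 had between 20 and 71 counts in its cortex and 0 counts in its hippocampus. With 0 counts in hippocampus, the limit of 10 for the median already required at least 20 in cortex. What set this library apart was not tested.

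L1Md_T members took 2.42% ± 0.288 of the L1 counts of a cortex library (n = 48) and 2.21% ± 0.165 of those of a hippocampus library (n = 46). In cortex the share was 2.60% ± 0.424 in WT-nt, 2.33% ± 0.285 in WT-t, 2.38% ± 0.193 in TS-nt and 2.44% ± 0.183 in TS-t. The extremes were 1.38% in mouse 1 and 3.70% in mouse 24, and without the 8 libraries that stood apart the group means lay closer together: 2.47% ± 0.105 (n = 8), 2.41% ± 0.128 (n = 13), 2.40% ± 0.197 (n = 8) and 2.39% ± 0.125 (n = 11). In hippocampus the share was 2.25% ± 0.160, 2.17% ± 0.157, 2.17% ± 0.220 and 2.25% ± 0.141. In both tissues the groups overlapped across most of their range. Within a mouse the share was higher in cortex in 41 of 46 mice, with a mean difference of 0.214 ± 0.302 percentage points (SD). Among the other subfamilies of the L1Md group, L1Md_A took 1.59% in cortex and 1.43% in hippocampus, and L1Md_Gf 0.110% and 0.0990%. L1Md_F2, with more than 2 times as many copies (44955), took a larger part than L1Md_T, 6.48% and 5.97%, while L1Md_F3 took 1.27% and 1.22% and L1Md_F 0.283% and 0.261%.

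**Figure D2:**
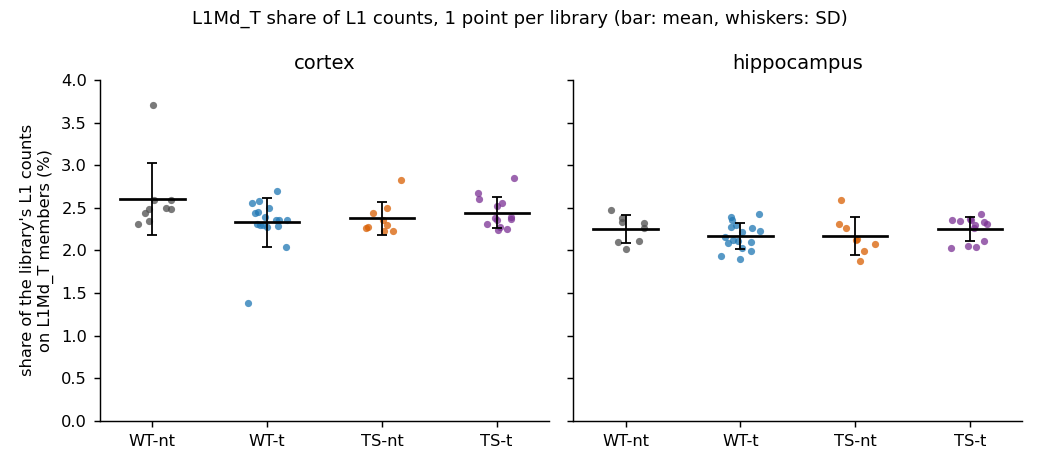
Share of the L1 counts of a library that fell on L1Md_T members (y axis, percent) by group, with cortex and hippocampus in separate panels. Points are libraries, the bar is the mean and whiskers are the SD. The groups overlap in both tissues, and the 2 cortex libraries farthest from the others lie at 1.38% (mouse 1) and 3.70% (mouse 24).

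Whether trisomy or lamivudine changed the subfamily as a whole was tested on the summed counts of all subfamilies, with L1Md_T complete as annotated. No group comparison passed the threshold of the study, an adjusted p-value of 0.1 (edgeR's quasi-likelihood test, Benjamini-Hochberg). The smallest adjusted p-value for L1Md_T was 0.538 in cortex and 0.476 in hippocampus. The same test called the total higher in cortex than in hippocampus, by 0.63 on the log2 scale (SE 0.16, adjusted p = 0.000415). With the mouse as a block the difference was 0.37 (SE 0.11, adjusted p = 0.00469). It was 0.18 over the members alone and 0.17 without the 8 libraries, so that most of it went with the 3 copies left out of the members and with those libraries. Over these and the other alternatives the adjusted p-value was between 3.37e-05 and 0.00748. In this bulk tissue, fewer cells of a type and less RNA per cell cannot be told apart.

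Single members were tested in a fit across all L1 elements with sufficient counts (edgeR's filterByExpr). In cortex 161 members of 5416 elements tested passed the filter, and in hippocampus 136 of 4238, with 111 tested in both. They held 27.3% and 30.6% of the members' counts, so that the remaining members could not be tested one by one. Levels are given as CPM (counts per 1000000 counts on tested elements), with TMM factors. The spread between libraries was wide. The coefficient of variation of a tested member had a median of 77.5% in cortex and 77.9% in hippocampus, and the lowest values were 33.6% (L1Md_T_dup11916, cortex) and 28.4% (L1Md_T_dup18310, hippocampus). The median SE of a log2 fold change between 2 groups was between 0.50 and 0.68.

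With this spread, 0 members were called in any of the 6 comparisons of either tissue. In cortex the share called among all elements was 0.0% in each comparison. In hippocampus it was 0.0708% in TS-nt vs. WT-nt, 0.0472% for TS-t compared with WT-nt and 0.0% in the other 4. At an unadjusted p-value below 0.05, 2 of 161 cortex members were counted in TS-nt vs. WT-nt, where the share of all elements was 1.51%. For TS-t vs. WT-nt the number was 2 (1.75% of all elements), 1 in TS-t vs. TS-nt (0.905%), 5 in WT-t vs. WT-nt (1.59%), 4 for TS-t against WT-t (1.96%) and 1 for the interaction of treatment and genotype (1.11%). In hippocampus 5 of 136 members were counted in TS-nt vs. WT-nt (4.03% of all elements), 6 when TS-t was compared with WT-nt (4.25%) and 3 in TS-t vs. TS-nt (3.26%). There were 4 in WT-t vs. WT-nt (3.16%), 5 for TS-t against WT-t (3.94%) and 3 for the interaction (3.11%). DESeq2 called 0 members in 11 of the 12 comparisons and 1, L1Md_T_dup21869, in TS-t vs. WT-t in hippocampus, where it called 0.283% of all elements. The same single member was called there with DESeq2's size factors (0.0944% of all elements) and with only the 2 groups in the model (0.269%). These counts moved with the filter, and why they did was not tested. With at least 10 counts over a tissue as the only filter, between 550 and 1303 of 7252 members were called in a cortex comparison and between 563 and 757 of 5028 in a hippocampus comparison. For TS-nt and TS-t against WT-nt, TS-t against TS-nt, WT-t against WT-nt, TS-t against WT-t and the interaction, the share of all elements called was then 20.8%, 25.0%, 6.86%, 22.8%, 13.5% and 9.05% in cortex. It was 14.5%, 13.5%, 13.4%, 12.7%, 10.6% and 12.1% in hippocampus. With no filter between 437 and 1818 of 14820 members were called in cortex, where the shares of all elements were 13.5%, 18.4%, 2.98%, 16%, 13% and 4.07%. In hippocampus between 0 and 1007 of 13016 were, with shares of 0.0%, 6.69%, 6.65%, 4.89%, 9.27% and 4.59%.

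The median log2 fold change of the tested members lay between -0.14 and 0.21 over the 12 comparisons. In TS-nt vs. WT-nt it was -0.0031 in cortex, where the median of all elements was 0.07, and -0.14 in hippocampus, where that median was -0.03. There 80 of 161 members had a positive value in cortex and 55 of 136 in hippocampus. In TS-t vs. TS-nt the medians of the members were 0.05 and 0.04, with 91 of 161 and 77 of 136 positive, beside 0.02 and 0.04 for all elements. In WT-t vs. WT-nt they were -0.0015 and -0.11, with 80 and 56 positive, beside -0.01 and -0.0042. In TS-t vs. WT-nt they were 0.05 and -0.01, with 90 and 64 positive, beside 0.07 and 0.01. For TS-t against WT-t they were 0.10 and 0.07, with 100 and 76 positive, beside 0.09 and 0.01. For the interaction they were 0.08 and 0.21, with 88 of 161 and 88 of 136 positive, beside 0.02 and 0.05. These comparisons share non-treated mice and are not independent of each other.

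L1Md_T_dup21869, the second most abundant member in cortex, had the smallest p-value of all members in a group comparison. In hippocampus its CPM ranged from 213 to 646 in WT-t (median 382, n = 17) and from 182 to 975 in TS-t (median 597, n = 13). It ranged from 185 to 559 in WT-nt (median 384, n = 8) and from 369 to 1025 in TS-nt (median 532, n = 8). TS mice were mostly higher, and 11 of 13 TS-t mice lay above the median of WT-t, but the groups overlapped. In TS-t vs. WT-t the log2 fold change was 0.64 (SE 0.17), with an unadjusted p-value of 0.000361 and an adjusted p-value of 0.191 in edgeR, so that it was not called. DESeq2 gave 0.69 with an adjusted p-value of 0.0228, and over all alternatives the adjusted p-value was between 0.0228 and 1.00. It was called as well with DESeq2's size factors (0.0832), with only the 2 groups in the model (0.0879) and with a filter of 10 counts (0.0695). Under that filter 10.6% of all elements were called in this comparison.

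The same member had a log2 fold change of 0.64 (SE 0.24) in TS-nt vs. WT-nt and 0.65 (SE 0.22) in TS-t vs. WT-nt in hippocampus, both not called, and these 2 comparisons share the WT-nt mice. Between treated and non-treated mice the log2 fold change in hippocampus was 0.01 (SE 0.21) in TS-t vs. TS-nt and 0.01 (SE 0.20) in WT-t vs. WT-nt. Over all settings the first lay between 0.01 and 0.25 and the second between -0.03 and 0.15. The sign of the second turned negative with other scalings. With these SEs an absence of a difference is not shown. In cortex its CPM was 321 ± 158 in WT-nt, 343 ± 138 in WT-t, 527 ± 201 in TS-nt and 397 ± 165 in TS-t. The log2 fold change in cortex was 0.72 (SE 0.34) in TS-nt vs. WT-nt and 0.21 (SE 0.27) in TS-t vs. WT-t. Neither passed the test, and the groups overlapped. The position of this copy was not analysed here.

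L1Md_T_dup18310 pointed the other way in hippocampus, where it varied least among the tested members. Its CPM ranged from 412 to 779 in WT-nt (median 518, n = 8) and from 294 to 460 in TS-nt (median 353, n = 8). Of the 8 TS-nt mice 7 lay below every WT-nt mouse. The log2 fold change was -0.58 (SE 0.21, unadjusted p = 0.00733, adjusted p = 0.907) in the quasi-likelihood test of edgeR. Treated mice of both genotypes also had lower means than WT-nt, 404 ± 108 in WT-t and 395 ± 116 in TS-t. The log2 fold change was -0.45 (SE 0.18) in WT-t vs. WT-nt, -0.48 (SE 0.19) for TS-t against WT-nt and 0.10 (SE 0.19) in TS-t vs. TS-nt. None was called, and the first 2 share the WT-nt mice. In cortex the group means were between 184 and 225 CPM and the log2 fold changes between -0.29 and 0.24.

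L1Md_T_dup15520 had the smallest p-value for the interaction of treatment and genotype in cortex. Its cortex CPM ranged from 0 to 127 in WT-nt (median 54.9) and from 0 to 228 in WT-t (median 81.6). It ranged from 69.6 to 254 in TS-nt (median 105) and from 0 to 111 in TS-t (median 33.9). Of the 13 TS-t mice 10 lay below every TS-nt mouse, whereas the median of WT-t was above that of WT-nt. The interaction on the log2 scale was -2.51 (SE 0.73, unadjusted p = 0.000756, adjusted p = 1.00 in edgeR). With a filter of 10 counts the adjusted p-value was 0.0825, and over its alternatives it lay between that value and 1.00. Under that filter 9.05% of all elements were called for the interaction in cortex. Among mice with labels beginning with 20 the interaction was -0.83. In hippocampus the value had the opposite sign, 1.09 (SE 0.73), and the difference between tissues was not tested.

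L1Md_T_dup5917 is the only member for which a position was at hand. The authors gave it in their supplement on differentially expressed L1 elements, so that this copy was not chosen independently of these data. The copy lies on the minus strand of MMU4 (chr4:89540200-89544786, GRCm38, 4587 bp) and overlaps no annotated gene. The nearest are the processed transcript Gm12610, 76713 bp away, and Dmrta1, a gene of the doublesex-related transcription factors, 134650 bp away. In cortex its CPM ranged from 6.02 to 560 in WT-nt (median 234, n = 9), and all 13 TS-t mice lay below that median, between 0 and 136 (median 36.1). It ranged from 0 to 410 in WT-t (median 31.3) and from 0 to 240 in TS-nt (median 105). The log2 fold change was -2.64 (SE 0.79) in TS-t vs. WT-nt, with an unadjusted p-value of 0.00172 and an adjusted p-value of 0.999 in edgeR. With weak filters the adjusted p-values of this comparison were 0.0190 and 0.0182, and over all its alternatives they lay between 0.0182 and 1.00. Of all elements 25.0% (filter of 10 counts) and 18.4% (no filter) were called there. Against WT-nt the cortex value was negative under every setting in WT-t (-4.03 to -1.50) and TS-nt (-1.45 to -1.13) as well. The smallest adjusted p-values over those settings were 0.0165 and 0.262. In hippocampus the medians were 44.3 CPM in WT-nt and 108 in WT-t, and 93.4 in TS-nt and 30.1 in TS-t, and the order of the groups was another one. The copy was at 0 in both tissues of 5 mice (3 WT-t, 1 TS-nt and 1 TS-t), so that its group values rest in part on how many such mice a group held. Among mice with labels beginning with 20, the sign turned in TS-t vs. WT-t in both tissues (1.62 in cortex and 6.72 in hippocampus). Only 3 WT-t and 8 TS-t mice had such labels. Of these, mouse 47 (WT-t) and mouse 46 (TS-t) had no count of the copy in either tissue.

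Among the other members with the smallest p-values of a comparison, none was called in edgeR with its filter, and the groups compared overlapped. In cortex L1Md_T_dup18258 had a median of 36.6 CPM in WT-nt and 81.5 in WT-t, and all 17 WT-t mice lay above the WT-nt median (log2 fold change 1.27, SE 0.47). L1Md_T_dup7891 had medians of 66.2 and 11.3 in the same groups (-1.74, SE 0.67). L1Md_T_dup20043 had medians of 27.2 in WT-t and 56.0 in TS-t (1.15, SE 0.51). These values are in units of a few counts per library, with group medians of at most 15 counts.

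In hippocampus L1Md_T_dup12941 had the smallest p-value for the interaction, -4.23 on the log2 scale (SE 1.48, unadjusted p = 0.00647, adjusted p = 1.00 in edgeR). Its CPM ranged from 0 to 113 in WT-nt (median 13.5), from 0 to 255 in WT-t (median 0), from 0 to 239 in TS-nt (median 84.8) and from 0 to 46.9 in TS-t (median 7.31). All 4 groups held mice at 0 and overlapped. In TS-t vs. TS-nt it differed by -2.59 (SE 1.02). With a filter of 10 counts and with no filter the adjusted p-value was 0.0522 and 0.0124 for the interaction and 0.0878 and 0.0542 for TS-t vs. TS-nt, while over all alternatives it reached 1.00. L1Md_T_dup20802 had the next smallest p-value for the interaction (1.17, SE 0.52, unadjusted p = 0.0262), with medians of 138 CPM in WT-nt, 95.3 in WT-t, 74.4 in TS-nt and 106 in TS-t.

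L1Md_T_dup15804 in hippocampus had a median of 2.84 CPM in WT-nt and 51.2 in TS-t, and all 13 TS-t mice lay above the WT-nt median (2.32, SE 0.87). L1Md_T_dup2007 had medians of 2.53 in TS-nt and 58.8 in TS-t (1.90, SE 0.81). With a filter of 10 counts these 2 members had adjusted p-values of 0.0775 and 0.0943, and over all alternatives they reached 0.876 and 1.00. L1Md_T_dup16515 had medians of 81.7 in WT-nt and 24 in WT-t (-1.50, SE 0.65). L1Md_T_dup20225 had medians of 97.2 in WT-t and 42 in TS-t (-1.03, SE 0.38). The highest group median of these members in hippocampus was 22 counts per library.

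**Figure D3:**
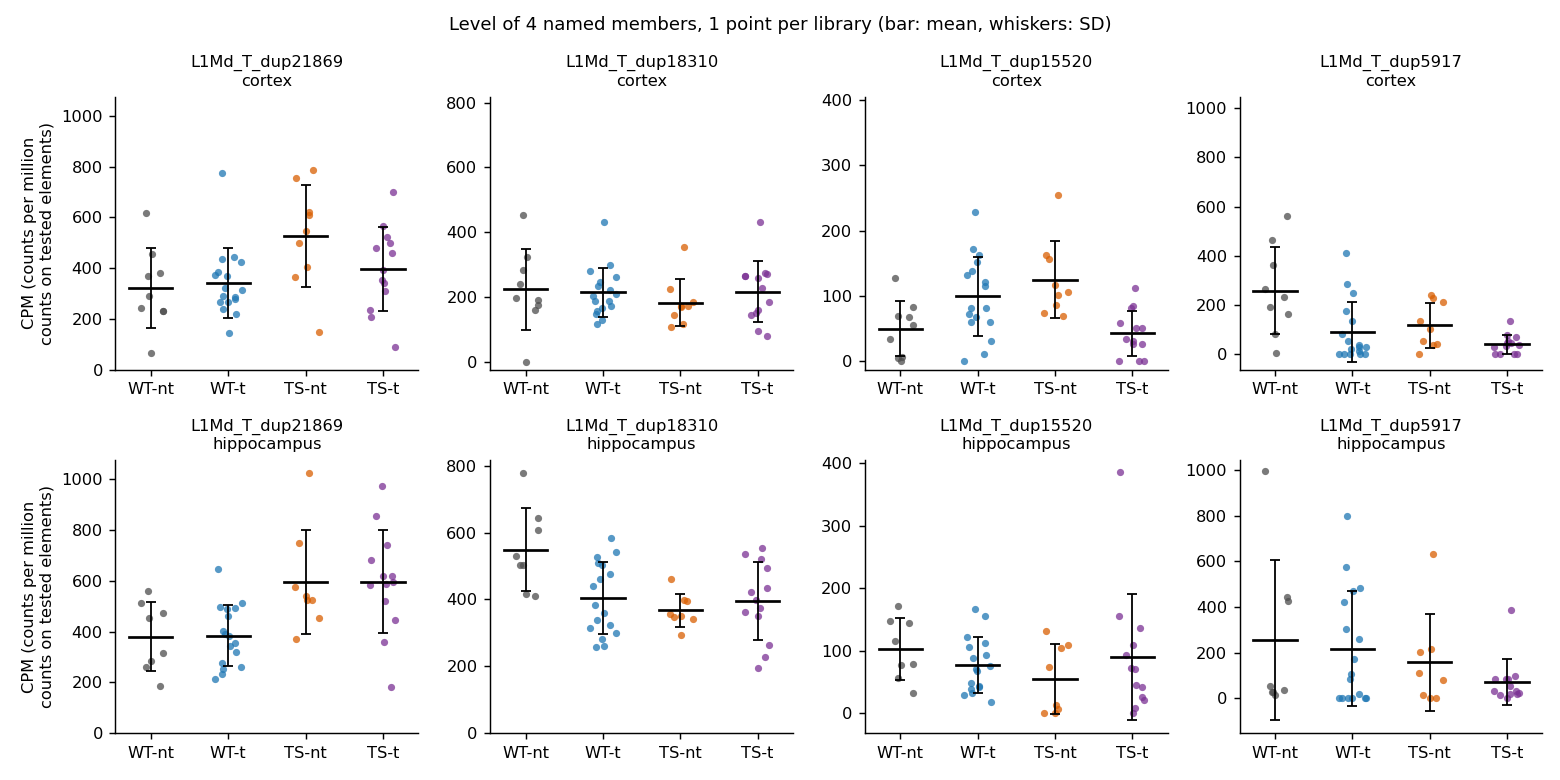
Level of L1Md_T_dup21869, L1Md_T_dup18310, L1Md_T_dup15520 and L1Md_T_dup5917 (y axis, CPM) by group, with cortex in the upper and hippocampus in the lower row. Points are libraries, bars are means and whiskers are SDs. For L1Md_T_dup21869 in hippocampus the TS means (594 and 597) lie above the WT means (380 and 383), and the groups overlap in every panel.

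Over all 94 libraries, 245 members of 7551 elements were tested, and 48 members (19.6%) were called between cortex and hippocampus. Among all elements the share was 22.7%, so that L1Md_T members were called about as often as L1 elements in general. Of the 48, 32 were higher in cortex and 16 in hippocampus, beside 12.2% and 10.4% of all elements. With the mouse as a block 61 members were called (35 higher in cortex), where 25.6% of all elements were. The split depended on the scaling. With DESeq2's size factors 45 of 55 called members were higher in cortex, and 26.9% of all elements were called. In DESeq2 it was 53 of 64 called members, and 32.5% of all elements were called. Without the 8 libraries 60 members were called (29.4% of all elements), and 36 at an adjusted p-value below 0.05 (17.8%). With a filter of 10 counts 1320 of 9194 members were called, where 13.8% of all elements were. With no filter 1064 of 16355 members were called, where 6.45% of all elements were. The median of all elements moved from 0.09 to 0.22 with those size factors, and that of the members from 0.13 to 0.29.

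L1Md_T_dup6533 had the largest log2 fold change among the tested members. Its CPM on the joint scale of both tissues ranged from 0 to 465 in cortex (median 225, n = 48) and from 0 to 108 in hippocampus (median 11.2, n = 46). It was higher in cortex in 45 of 46 mice, and the remaining one, mouse 1, had no count in either tissue. The log2 fold change was 4.30 (SE 0.30, adjusted p = 1.39e-25 in edgeR). The difference was 3.90 with the mouse as a block and 4.39 without the 8 libraries that stood apart.

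L1Md_T_dup2410 had a cortex median of 154 CPM and a hippocampus median of 0, and was higher in cortex in 41 mice and tied in the other 5, where it had no count (3.25, SE 0.44). L1Md_T_dup1295 was higher in cortex in 42 of 46 mice, with medians of 69.0 and 0 (2.98, SE 0.35). L1Md_T_dup1302 followed with 41 mice and medians of 92.7 and 0 (2.41, SE 0.36), and L1Md_T_dup10019 with 35 mice (2.40, SE 0.41). These 4 members had no count in 25 to 28 of the 46 hippocampus libraries. The most abundant member, L1Md_T_dup1553, was higher in cortex in 36 of 46 mice (0.81, SE 0.22, adjusted p = 0.00463 in edgeR). Its cortex CPM reached 14727 in mouse 8, and without the 8 libraries the log2 fold change was 0.45 (adjusted p = 0.0650).

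In the other direction the differences were smaller. L1Md_T_dup18310 had a joint CPM of 198 ± 83.8 in cortex and 391 ± 110 in hippocampus, and was higher in hippocampus in 42 of 46 mice (-1.0, SE 0.15, adjusted p = 2.03e-09 in edgeR). L1Md_T_dup20149 (-0.71, SE 0.14) and L1Md_T_dup21065 (-0.60, SE 0.15), both among the most abundant, were higher there in 36 and 38 mice, although without a filter neither was called (adjusted p = 0.109 and 0.362 in edgeR). The largest changes were those of low members: L1Md_T_dup12989 (-2.33, SE 0.48), with 29 mice higher in hippocampus and a cortex median of 0, and L1Md_T_dup18253 (-1.49, SE 0.45), with 33 mice. L1Md_T_dup6239 (-1.33, SE 0.49, 18 mice), L1Md_T_dup17019 (-1.16, SE 0.41, 32 mice) and L1Md_T_dup22880 (-1.15, SE 0.47, 30 mice) were called as well. The first lost its call with the mouse as a block (adjusted p = 0.445), and the other 2 in DESeq2 (0.125 and 0.119) and with its size factors (0.118 and 0.101). Over all alternatives the adjusted p-value of L1Md_T_dup22880 reached 0.417.

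**Figure D4:**
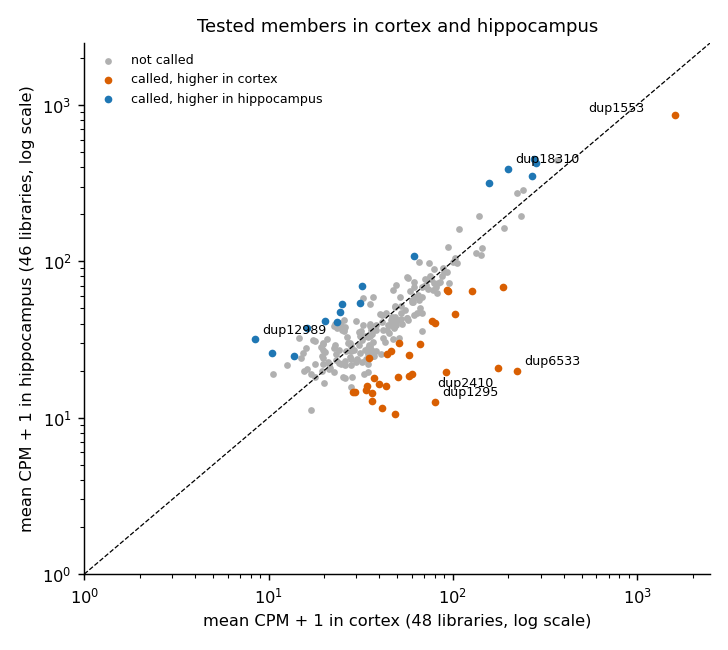
Mean level of the 245 tested members in cortex (x axis) and hippocampus (y axis), in CPM + 1 on log scales, with the dashed line marking equal levels. Orange points are the 32 members called higher in cortex and blue points the 16 called higher in hippocampus; L1Md_T_dup6533, L1Md_T_dup2410 and L1Md_T_dup1295 lie farthest below the line.

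Since both tissues of 46 mice were sequenced, a member's level in cortex was compared with that in hippocampus of the same mouse. Of the 111 members tested in both tissues, 14 (12.6%) were called, all with a positive rho (Spearman's rho, permutation test, adjusted p below 0.1 over the 3722 elements tested in both tissues). Among all elements 8.46% were called, and whether the shares differ was not tested. The median rho was 0.0964 over the members, with values from -0.362 to 0.803, and 0.114 over all elements. With Pearson's r 11 members were called (9.05% of all elements), with deviations from the group mean 15 (7.63%), and without the 8 libraries 15 (6.1%, 38 mice). Within the 27 mice with labels beginning with 20 there were 8 (3.33%). With p-values adjusted over the 111 members alone 21 were called.

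The strongest of these relations came from members that were well counted in some mice and at or near 0 in others. For L1Md_T_dup22880 rho was 0.803 over the 46 mice (permutation p = 1e-05, adjusted p = 0.000631), which is the smallest p-value the draws can give, and r was 0.801, or 0.840 without the 2 mice farthest from the median in cortex. Among mice with labels beginning with 18, 19 and 20 rho was 0.636, 0.876 and 0.771. It had at least 10 counts over both tissues in 28 mice, where the cortex CPM ranged from 0 to 785 (median 222) and the hippocampus CPM from 23.5 to 1146 (median 477). In the other 18 mice the ranges were 0 to 28.7 and 0 to 51.1, and both sets overlap at their edge. The sets come from the limit of 10 counts, so that this overlap cannot show whether the mice form separate clusters. Within the 28 mice rho was 0.594.

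L1Md_T_dup22882 had a rho of 0.785 over the 46 mice (permutation p = 1e-05, adjusted p = 0.000631) and r was 0.799, or 0.786 without the 2 farthest mice. Among mice with labels beginning with 18, 19 and 20 rho was 0.832, 0.766 and 0.724, and within the 21 mice with at least 10 counts it was 0.507. L1Md_T_dup16306 had a rho of 0.688 (permutation p = 1e-05, adjusted p = 0.000631), and r was lower, 0.418 (permutation p = 0.00562, adjusted p = 0.0737), or 0.563 without the 2 farthest mice. Its rho by label was 0.823, 0.503 and 0.623, and within the 33 mice with at least 10 counts it was 0.194. The limit of 10 counts was chosen after the values were seen and narrows the range of both levels, so that the values within such mice are a description without a test.

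Mice of all 4 groups were found on both sides of this limit. The 28 mice with at least 10 counts of L1Md_T_dup22880 were 5 TS-nt, 6 TS-t, 6 WT-nt and 11 WT-t, and the 18 others were 3, 7, 2 and 6 in that order. No count in either tissue was found in 5 mice for L1Md_T_dup22880 (1 TS-nt, 2 TS-t, 1 WT-nt and 1 WT-t) and in 15 mice for L1Md_T_dup22882. All 5 mice without L1Md_T_dup22880 were also without L1Md_T_dup22882. The 5 had between 539089 and 630621 L1 counts over both tissues, which is within the range of the other mice. For L1Md_T_dup16306 there were 9 mice (6 WT-t, 1 TS-nt and 2 TS-t), for L1Md_T_dup15746 9 mice of all 4 groups, and for L1Md_T_dup2410 5 mice of all 4 groups. Whether these mice lack the copy was not tested, as no DNA was read here.

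L1Md_T_dup21869 was counted in every library and had no mice near 0. Over 46 mice rho was 0.575 (permutation p = 4e-05, adjusted p = 0.00193) and r was 0.589 (permutation p = 4e-05). Both values pool the 4 groups, and the TS means of this member lay above the WT means in both tissues. A difference between groups can therefore enter this relation, and how far it does is not given here. Without the 2 mice farthest from the median in cortex r was 0.548. Among the mice with labels beginning with 18, 19 and 20 (7, 12 and 27 mice) rho was 0.179, 0.196 and 0.585, and the values of the first 2 were lower than the pooled one. L1Md_T_dup10469 had a rho of 0.584 over all mice (permutation p = 2e-05, adjusted p = 0.00113) and r was 0.562, or 0.586 without the 2 mice farthest from the median in cortex. Its rho by label was 0.450, 0.835 and 0.546. Within the 34 mice with at least 10 counts rho was 0.38 and r was 0.290, given as a description.

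**Figure D5:**
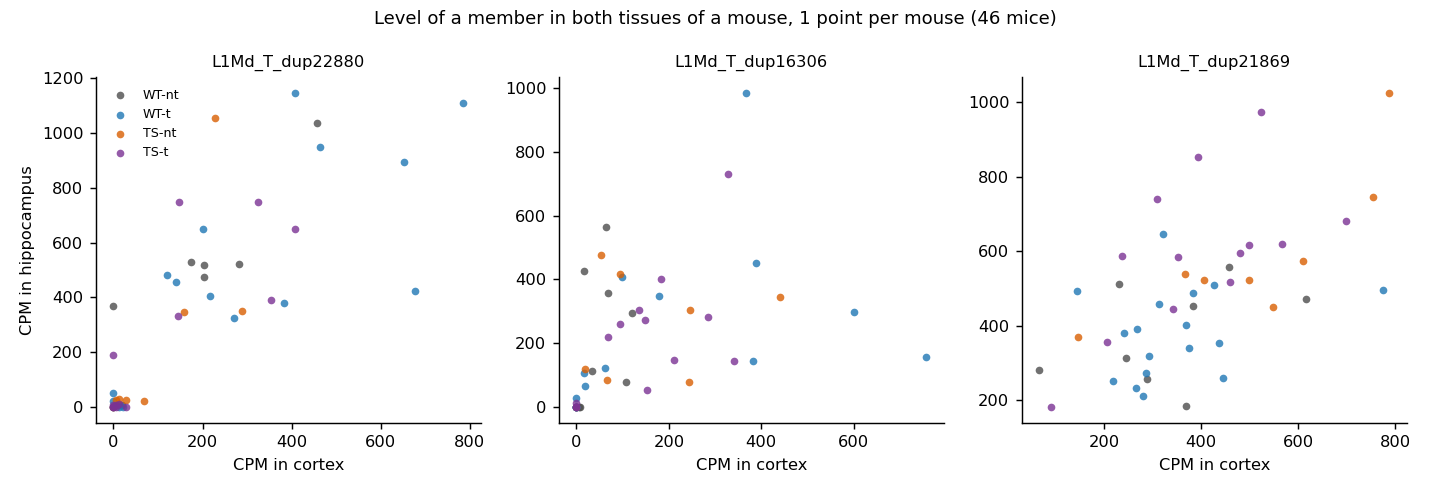
Level of L1Md_T_dup22880, L1Md_T_dup16306 and L1Md_T_dup21869 in cortex (x axis) and hippocampus (y axis) of the same mouse, in CPM, with 1 point per mouse (46 mice) coloured by group. For the first 2 many mice lie at or near 0 in both tissues, and they are from several groups, while L1Md_T_dup21869 is above 0 in every mouse.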

How the data were processed

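The counts were used as deposited, as whole numbers without normalization: the authors trimmed reads with Trimmomatic 0.38, aligned them to GRCm38 with HISAT2 2.1.0, allowing a read at most 5 alignments, and obtained a count for each annotated RepeatMasker copy from Telescope, which reassigns reads with several alignments. The strand setting of the counting is not given in the sources used here. The 94 columns were matched to mice by their labels, and no 2 libraries held identical counts. The table holds L1 elements only, so that markers of tissue and cell type were not analysed here. Intervals between libraries are SDs and include counting error.

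Elements were filtered with filterByExpr, normalized with TMM and tested with edgeR 4.0.16 (quasi-likelihood, robust, R 4.3.3), with the 4 groups of a tissue, or the 8 of both, in a single model. P-values were adjusted over all elements tested, with a threshold of 0.1. Subfamily sums were fitted in the same way. The fit was tested on simulated data with known changes. Relations between tissues, adjusted over all elements tested in both (a choice made after seeing the data, beside the adjustment over members alone), used permutation tests with 100000 draws (scipy 1.17.1, numpy 2.4.6), two-sided, and 1e-05 is the smallest p-value they can give. The deposit pairs tissues through the mouse: deviations from the group means of the 111 members correlated between the tissues of a mouse with a median of 0.220 (-0.0510 to 0.595), above 0.1 in 39 of 46 mice. Libraries stood apart if their value on the first principal component was over 3 median absolute deviations away from its median.

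Alternatives were DESeq2 1.42.0, its size factors, weaker filters, a threshold of 0.05, only the 2 groups compared, mice with labels beginning with 20, the mouse as a block and leaving out libraries that stood apart. Members named were the 10 highest of each tissue, the called members or the 2 with the smallest p-values of each comparison, L1Md_T_dup5917, the 5 with the largest tissue difference in each direction and the 5 with the highest rho. Also named were the 5 highest members at 0 in both tissues of at least 3 mice. The position of L1Md_T_dup5917 was the one the authors annotated and was compared with the gene annotation of GRCm38. Members, lists and tests were chosen with earlier results of these data known.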

Additional observations from a re-analysis of the deposited data

Results flagged for a closer look

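In groups of up to 10 libraries, the highest or lowest library was compared with the others by Dixon's ratio, the gap to the nearest library divided by the range of the group. Of 100 such checks on the measures and members of the report, 15 passed the critical value, each through the highest library of its group. A rate of about 1 in 20 by chance holds for independent, normally distributed values. Levels of sparse members are skewed and the checks share mice, so that no excess over chance can be read from the 15. In cortex the share of L1Md_T in WT-nt was set by mouse 24 at 3.70% (ratio 0.793) and in TS-nt by mouse 27 at 2.83% (0.542). Mouse 27 also had the most members at the common depth in TS-nt, 2409 in cortex (0.595) and 1947 in hippocampus (0.558).

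Among single members in cortex, mouse 24 stood apart in WT-nt for L1Md_T_dup6526 (0.579), mouse 43 for L1Md_T_dup20043 (0.580) and mouse 33 for L1Md_T_dup6533 (0.508). In TS-nt mouse 34 stood apart for L1Md_T_dup18310 (0.522) and L1Md_T_dup15520 (0.494). In hippocampus L1Md_T_dup5917 reached 996 CPM in mouse 30 of WT-nt (0.562) and 634 CPM in mouse 40 of TS-nt (0.661). The other hippocampus values were those of L1Md_T_dup12941 in mouse 29 of WT-nt (0.747), and in TS-nt of L1Md_T_dup11916 in mouse 26 (0.648), L1Md_T_dup22880 in mouse 31 with 1052 CPM (0.666) and L1Md_T_dup7891 in mouse 27 with 55.6 CPM (0.613). Without mouse 24 and the other libraries that stood apart, the mean of L1Md_T_dup6526 in cortex was 112 ± 47.5 CPM in WT-nt (n = 8), against 145 ± 106 with it (n = 9). No cause of these values was tested.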

How the results depend on the processing

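Most members had too few counts to be tested, the tested ones varied widely between libraries, and near-identical copies share reads. These limits were not compared with each other. In the following the comparisons are in the order TS-nt and TS-t against WT-nt, TS-t against TS-nt, WT-t against WT-nt, TS-t against WT-t and interaction, and the cause of each change was not tested. The number of called members was 0 in all 12 main comparisons and depended on the filter. With a filter of 10 counts in total it was 1133, 1303, 550, 1255, 880 and 754 in cortex, 757, 743, 696, 685, 563 and 631 in hippocampus, and 1320 between tissues. Of all elements 20.8%, 25.0%, 6.86%, 22.8%, 13.5% and 9.05% were called in cortex under that filter. In hippocampus the shares were 14.5%, 13.5%, 13.4%, 12.7%, 10.6% and 12.1%, and between tissues 13.8%. Without a filter it was 1378, 1818, 437, 1688, 1459 and 597 in cortex, 762, 720, 527, 1007 and 490 in hippocampus from the second comparison on (0 in the first), and 1064 between tissues, where 6.45% of all elements were called. In TS-t vs. WT-t in hippocampus 1 member was called with DESeq2 (0.283% of all elements), 1 with its size factors (0.0944%) and 1 with only the 2 groups (0.269%). Of 99 alternative counts of called members 71 lay within 1.5 times the main one. In the 12 comparisons with a main count of 0 a ratio has no meaning, and only another 0 can lie within it. A stricter adjusted p-value on the same fit could only give 0 there again. The 71 were thus fixed in part beforehand and cannot show how stable the counts were. With the mouse as a replicate block 61 members were called between tissues instead of 48, where 25.6% and 22.7% of all elements were called. The subfamily total differed by 0.37 instead of 0.63 with the block. The block ended the call of L1Md_T_dup6239 and of no other named member. Members related between tissues were 21 with p-values adjusted over the members and 10 among mice with labels beginning with 20. Adjusted over all elements they were 14, with 11 for Pearson's r and 8 for labels beginning with 20. Of all elements 8.46%, 9.05% and 3.33% were called in these settings. Members per library were 2004 in cortex as counted, and 513 in cortex and 368 in hippocampus with at least 5 counts.

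The subfamily total changed its sign, with no call on either side, in 13 of 101 alternatives. In cortex TS-t vs. WT-nt was -0.0829 without the most abundant element of each subfamily, -0.12 over the members alone and -0.47 with labels beginning with 20, and WT-t vs. WT-nt was -0.13, -0.18 and -0.54 under the same settings. TS-t vs. TS-nt was -0.0205 in cortex and -0.0193 in hippocampus with labels beginning with 20. TS-t vs. WT-t in cortex was 0.54 in DESeq2, 0.0430 without the most abundant element, 0.0636 over the members, 0.30 without the libraries that stood apart and 0.0685 with labels beginning with 20. Among named members, labels beginning with 20 turned the sign of L1Md_T_dup15520 in TS-t vs. WT-t in cortex (0.51), of L1Md_T_dup18258 in TS-t vs. WT-nt in cortex (-0.0382), and of L1Md_T_dup5917 in TS-t vs. WT-t in cortex (1.62) and hippocampus (6.72) and for the interaction in hippocampus (7.44). Only 3 WT-t mice had such labels. L1Md_T_dup21869 in WT-t vs. WT-nt in hippocampus was -0.0266 with DESeq2's size factors, -0.0264 in DESeq2 and -0.0047 with only the 2 groups. Of 450 alternative values of named members 411 kept their direction and their side of the threshold, 15 passed it instead of missing it and 16 the reverse. Some of the 450 came from the main fit read at a stricter adjusted p-value. Their values and direction could not differ from the main ones, so that the 411 are not that many separate checks. The adjustment over all elements and the restriction of 5 members to mice with at least 10 counts were chosen after seeing the data.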
